A study of Mus musculus with 3 samples.

Results

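The genes described here encode 9 proteins of peroxisomal fatty acid oxidation, namely Ehhadh, Acaa1a, Acaa1b, Hsd17b4, Scp2, Abcd3, Pex11a, Crot and Decr2. They were listed by name, with earlier results of these data known, and all 9 were found among the 22367 protein-coding genes of GENCODE release M1 on the mouse genome build NCBI37/mm9. Binding was read from 3 libraries made by chromatin immunoprecipitation and sequencing (ChIP-seq) of liver from wild type male C57BL/6 mice aged 3 months, which were an RXRα ChIP, its input (sheared chromatin without pull down) and a RARα ChIP made with an antibody from Santa Cruz. The liver had been ground in liquid nitrogen before it was fixed and sonicated, and the labels do not give the number of mice behind a library. Each antibody had 1 library, so no difference has a replicate check and no p-value is given.

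RXRα, the retinoid X receptor, binds DNA as the partner of other nuclear receptors, among them RARα, the receptor of all-trans retinoic acid, and PPARα, the fatty acid sensor of the liver. The partners of RXRα favour repeats of the 6 letters AGGTCA, and the spacing between the repeats differs between partners. PPARα with RXRα is known for direct repeats with 1 base between them (DR1) and RARα with RXRα for longer spacings such as 5 bases (DR5). Peroxisomes shorten very long chain, branched and dicarboxylic fatty acids that mitochondria handle poorly, and in mouse liver the genes of this pathway are textbook targets of PPARα.

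RXRα binding is given as reads per bin of 32 bp and as the ratio of RXRα to input in the same bin, in which an input below the genome mean of 0.603 reads per bin was set to that mean. A bin at 20 times input or more, joined to others within 200 bp, made an RXRα region, and 42117 such regions were found. The reads given for a region are those at its summit, where RXRα reads were highest. The ratio given for a region is that of its best bin, which can be a different bin. A RARα peak was kept when its deposited score was above 20, which left 32946 of 143280 peaks. Regions and peaks were assigned to a gene when they lay within 10 kb of its start or in its body, and a RARα peak was called co-localized when it shared at least 25% of the shorter of the 2 intervals with an RXRα region. The RXRα and input signals corresponded to 9.99994 M and 9.99929 M reads. The paper reports the number of mapped reads of the RARα library, which was read here only from its peaks and their scores. Intervals on read numbers are exact 95% Poisson intervals and cover counting error only.

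The 7 matches to a DR1-like sequence below carry the comparison with the DR1 letters. They had at most 2 mismatches to the 12 fixed bases of AGGTCA, any base, AGGTCA, and lay within 100 bp of an RXRα summit on either strand. They are shown with 8 bases on each side, 5′ to 3′ on the strand of the match, and capitals mark the match. The best matches at the highest regions of Ehhadh and Crot, with 4 and 5 mismatches, follow for contrast. All are NCBI37/mm9 sequence. The match 9486 bp downstream of the start of Acaa1a lies beyond the gene's end, in a region 6611 bp from the start of Xylb, its nearest gene start.
Ehhadh, 882 bp upstream of the gene start, chr16:21788785-21788813, plus strand, 2 mismatches: gggaacaaAGTTCAAAGGGCAgttccaat
Acaa1a, 3003 bp downstream of the gene start, chr9:119253401-119253429, minus strand, 2 mismatches: gagggtcaAGGACCAAGGTCAgggtacac
Acaa1a, 9486 bp downstream of the gene start, chr9:119259884-119259912, plus strand, 2 mismatches: ccagcaacAGGTCAAAGGTGGttccactc
Scp2, 79292 bp downstream of the gene start, chr4:107738297-107738325, minus strand, 2 mismatches: atggattcAGTTCACAGTTCAaaagaacc
Scp2, 76695 bp downstream of the gene start, chr4:107740894-107740922, minus strand, 2 mismatches: catctgccAGCTCTGAGGTCAaagggact
Abcd3, 815 bp downstream of the gene start, chr3:121517391-121517419, minus strand, 2 mismatches: gactttatAGGTGAAAGGTGAaagtgtgt
Crot, 15876 bp downstream of the gene start, chr5:8981434-8981462, plus strand, 1 mismatch: aagtgcagAGGTCAGAGGCCAggagctga
Ehhadh, 4905 bp downstream of the gene start, chr16:21782998-21783026, plus strand, 4 mismatches: caactaggAGTCCAAACCTCAggcgacac
Crot, 1073 bp upstream of the gene start, chr5:8998383-8998411, minus strand, 5 mismatches: aacagtgaAGGTGAGTGACCCtaaattct

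An RXRα region was found at all 9 genes, beside 47.9% of all protein-coding genes, and a RARα peak at all 9, beside 57.9%. A co-localized RARα peak was found at 8 of 9, beside 27.2% of all genes and 67.1% of the 9047 genes that had both a region and a peak. The exception was Crot. The highest RXRα to input ratio of each gene had a median of 95.0 over the members, from 33.2 at Abcd3 to 159 at Hsd17b4, beside a median of 19.9 over all genes and 49.8 over the genes with both. The members lay between the 66.8th and the 98.2nd percentile of all genes on this measure. Longer genes have more bins in which a high ratio can occur, and the members' median length of 26558 bp was close to the median of 25793 bp over the genes with both. The members ran from 7175 bp (Pex11a) to 101160 bp (Scp2), and whether length bore on the ratios was not tested. Within 10 kb of the start alone, the members' median ratio was 76.3 and that of the genes with both was 36.5.

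**Figure D1:**
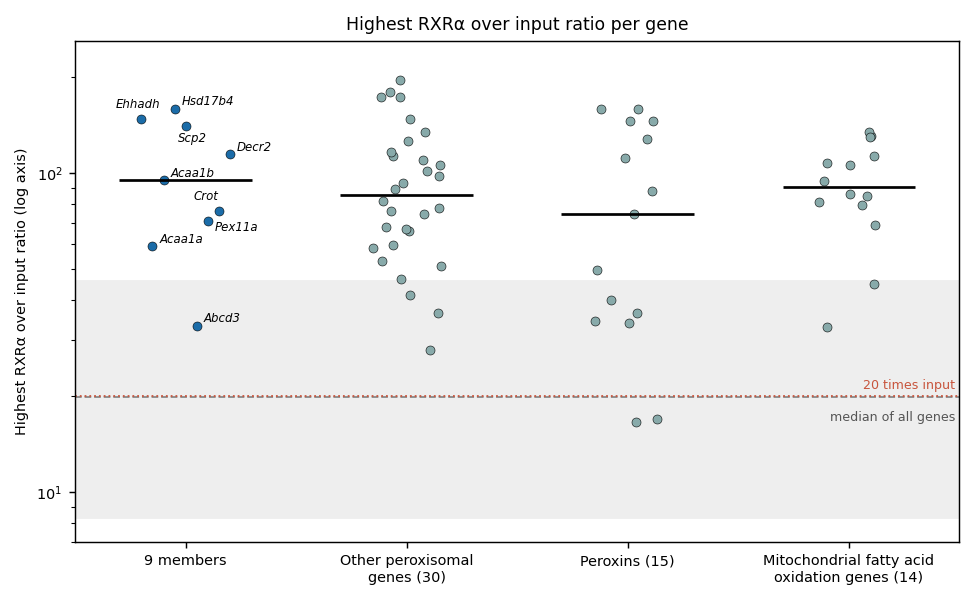
Highest RXRα over input ratio per gene on a log axis, for the 9 members and for 3 lists of other genes, each point a gene and each bar the list's median. The grey band spans the middle 50% of all protein-coding genes, the dashed line is their median of 19.9 and the dotted line the threshold of 20 times input; the members run from 33.2 (Abcd3) to 159 (Hsd17b4).

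Where the binding lay differed between the receptors. The highest RARα peak was within 500 bp of the gene start at 7 of 9 members, beside 51.4% of the genes with both. The highest RXRα region was within 500 bp of the start at 0 of 9, beside 18.4%, and the region with the most reads was within that distance at 0 of 9 as well, beside 17.8%. At 8 of 9 members the highest region lay farther from the start than the highest peak, beside 68.7%. The median distances were 1668 bp for the region and 145 bp for the peak, beside 6146 bp and 432 bp over the genes with both. By this measure both lay nearer the start at the members. The highest region nearest to a start was at 796 bp, in Abcd3, and the nearest region of most reads at 673 bp, in Hsd17b4. The mean RXRα signal within 500 bp of the start was nevertheless 10.9 reads per bin at the median member, or 5.79 times input, beside 3.77 times input over the genes with both. The mean input in the same windows was 1.28 to 2.47 reads per bin at the 9 members, above the genome mean. Its median was 2 at the members and 1.72 at the 14 mitochondrial fatty acid oxidation genes described below. Of those 14 genes, 9 had their highest region within 500 bp of the start. A higher input lowers the ratio at a given number of reads. The region with the most reads was picked by reads, among regions that had passed the ratio threshold. Whether input bore on the place of the highest region was not tested.

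**Figure D2:**
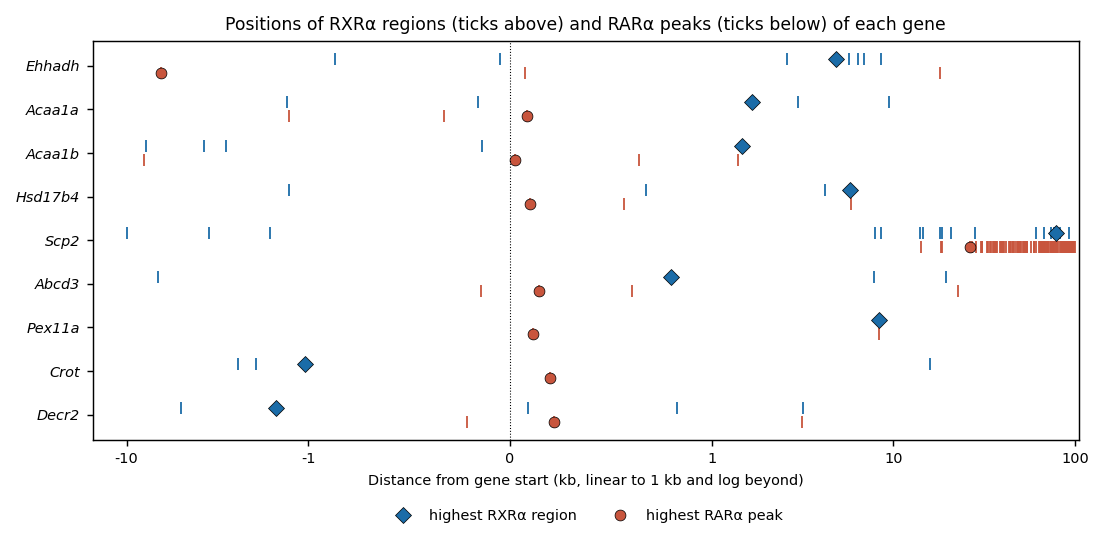
Distance from the gene start, in kb, of every RXRα region (upper blue ticks) and every RARα peak with a score above 20 (lower red ticks) at the 9 genes, with the highest of each marked by a diamond or a circle. The circles of 7 genes sit within 500 bp of the start and none of the 9 diamonds does.

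The highest RARα peak was itself co-localized at 3 of 9 members, Acaa1a, Acaa1b and Decr2, beside 42.6% of the genes with both. This count depended on the threshold: at 10 times input it was 8, and against the genome mean input alone it was 7.

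Of the filtered RARα peaks, 23 belonged to the 8 members other than Scp2. The 11 that lay within 500 bp of the nearest gene start had scores from 36 to 126 and a median RXRα signal of 7.44 times input, and 5 of 11 were co-localized, beside 31.4% of all such peaks in gene windows. The 12 peaks farther out had lower scores, from 21 to 76 with a median of 26 against 65, and a higher RXRα signal of 14.7 times input at the median, with 8 of 12 co-localized beside 33.2%. Over all genes the median score was also higher near a start, 42 against 30 farther out. Their median RXRα signal was 4.63 times input at peaks near a start and 3.94 times input at peaks farther out. At 8 of the 8 members with more than 1 filtered peak, Scp2 included, the peak with the highest score was not the one with the most RXRα over input, beside 66.5% of such genes.

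The first step of the pathway is transport. Abcd3 encodes the peroxisomal membrane transporter of long chain and branched acyl-CoA esters, and its start lies at 121518220 on chromosome 3. RXRα was highest in an intron 796 bp downstream of the start, with 125 reads at the summit (104 to 149) over 7 input reads, which gave a ratio of 17.9 there and of 33.2 at the best bin. This ratio was the lowest of the 9 highest regions although 5 members had fewer reads at their highest region, since the input was higher at this site. A RARα peak with a score of 26 overlapped the region. The stronger RARα peaks of Abcd3, with scores of 99 and 46, lay 145 bp downstream and 145 bp upstream of the start and had no region, at 5.54 and 5.25 times input.

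Crot encodes carnitine octanoyltransferase, which prepares shortened acyl chains for export to mitochondria. Its only filtered RARα peak had a score of 126, the second highest at the members after Scp2, and lay 199 bp downstream of the start at 8997324 on chromosome 5. The mean RXRα signal over this peak was 5.41 reads per bin, or 2.75 times input. RXRα instead formed 3 regions upstream of the start. They had 46 reads (33.7 to 61.4) at 1044 bp, 25 at 1940 bp and 34 at 2436 bp, each over 0 input reads, with ratios of 76.3, 41.5 and 56.4. The remaining region, with 21 reads, lay in an intron 15932 bp downstream and held the DR1-like sequence with the fewest mismatches. The highest RARα score that touched any Crot region was 12, below the threshold.

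Ehhadh encodes the bifunctional enzyme that carries out hydration and dehydrogenation of straight chain enoyl-CoA esters. It had the most RXRα of the members, with 1196 reads (1129 to 1266) within 10 kb of the start against 141 in input, or 8.49 times input. Of its 8 regions, 6 lay in introns between 2589 and 8541 bp downstream of the start at 21787917 on chromosome 16. The highest, at 4829 bp, had 214 reads (186 to 245) over 2 input reads at the summit. Its ratio was 107 there and 148 at the best bin. The neighbouring regions at 5725, 6365, 6909 and 8541 bp had 81, 66, 71 and 71 reads. None of these intronic regions was under a filtered RARα peak, and the highest score there was 19. The region at 51 bp upstream of the start was smaller, with 36 reads over 0 input reads and a ratio of 59.7, and was overlapped by a RARα peak with a score of 70. The highest RARα peak, with a score of 76, lay 6483 bp upstream without a region.

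Hsd17b4 encodes the D-bifunctional protein, which acts on branched and very long chain substrates. It had the highest ratio of the members, 159, in an intron 5793 bp downstream of the start on chromosome 18, where 96 RXRα reads (77.8 to 117) stood over 0 input reads. An intronic region 673 bp downstream had more reads, 180 (155 to 208), over 2 input reads at the summit. Its ratio was 90.0 there and 145 at the best bin. The intervals of the read numbers did not overlap. The order of these regions by ratio was the reverse of that by reads. The intervals do not cover the input, which at 5793 bp was 0 reads and was set to the genome mean. Over the whole regions the mean signals were 58.8 times input at 5793 bp and 56.7 times at 673 bp. Both were co-localized with RARα peaks of low score, 21 and 23. The highest RARα peak, with a score of 76, lay 100 bp downstream of the start with no region, although RXRα was at 10.7 times input over it.

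Acaa1a and Acaa1b encode closely related peroxisomal thiolases, which release acetyl-CoA in the last step of the cycle. Both are on chromosome 9, with starts at 119250412 and 119066211. At Acaa1a the highest region, 1668 bp downstream, had 107 reads (87.7 to 129) over 5 input reads at the summit. Its ratio was 21.4 there and 59.0 at the best bin. A region 156 bp upstream of the start had 74 reads over 2 input reads, a ratio of 37.0, and lay under the gene's RARα peaks with scores of 51 and 78. Myd88 starts close to Acaa1a, so the peak with a score of 78 was 34 bp from the start of Myd88 and 83 bp from that of Acaa1a, and binding there cannot be told apart between the genes. Myd88 was also the nearest gene start of the highest region of Acaa1a, at 1551 bp, and of the region 2980 bp downstream, at 2863 bp. The distance rule does not tell to which gene they belong. At Acaa1b the highest ratio, 95.0, lay 1475 bp downstream of the start with 136 reads (114 to 161), under a RARα peak with a score of 31. A region 7853 bp upstream had 163 reads (139 to 190), a ratio of 69.0 and a RARα peak with a score of 26. Its nearest gene start was that of Gm10608, at 5785 bp, as it was for the regions 2829 and 3725 bp upstream, and the distance rule does not tell to which gene they belong. The start itself had a region with 47 reads over 2 input reads under the gene's highest RARα peak, with a score of 36, the lowest of the members' highest scores.

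Reads from near-identical copies cannot be assigned with certainty, so the sequences at the summits of the 10 regions of Acaa1a and Acaa1b were aligned to the other gene's window. Of the 10, 1 aligned over more than 100 bp, that at 2980 bp downstream of Acaa1a, which matched Acaa1b over 197 bp at 93.9% identity. This region was called in Acaa1a with a ratio of 22.0, and the matching place in Acaa1b had a highest ratio of 11.6. The other 9 aligned over at most 58 bp.

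Scp2 encodes a peroxisomal thiolase for branched chains together with the sterol carrier protein, made from different transcripts of the gene. The annotation puts the gene start at 107817603 on chromosome 4, and 4 of its 9 distinct transcript starts lie 26466 to 26603 bp farther downstream. The highest RARα peak of all members, with a score of 186, lay at those inner starts, 26548 bp from the annotated gene start. RXRα over this peak was at 4.54 times input and made no region. Within 10 kb of the annotated gene start there were 0 filtered RARα peaks, and the 3 unfiltered ones had scores up to 10. From 26 kb downstream on, Scp2 held 96 of its 99 filtered RARα peaks. They covered 69.5% of a span of 73911 bp with a median score of 32, and 63 of their 95 neighbouring pairs were 10 bp apart. By the number of filtered peaks Scp2 ranked 7th of all genes.

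Over those 96 peaks RXRα was at 2.38 times input at the median. RXRα formed 20 separate regions instead, 5 of them within 10 kb of the annotated gene start, 5 between 10 and 26 kb downstream and 10 beyond. The highest was 78195 bp downstream in an intron, with 141 reads over 1 input read and a ratio of 141, under a RARα peak with a score of 66. Further regions at 61395 and 79347 bp had 129 and 99 reads and ratios of 96.0 and 98.0. The nearest gene start of each of these regions was that of Podn, 34466 bp from the highest. All lay in the body of Scp2, and the distance rule does not tell to which gene they belong. The RARα peaks covered most of this stretch, and all 10 regions beyond 26 kb were co-localized. Of the 56 regions and 122 filtered peaks of the members, 20 and 99 were those of Scp2, and the 26 co-localized peaks became 13 of 23 without it.

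**Figure D3:**
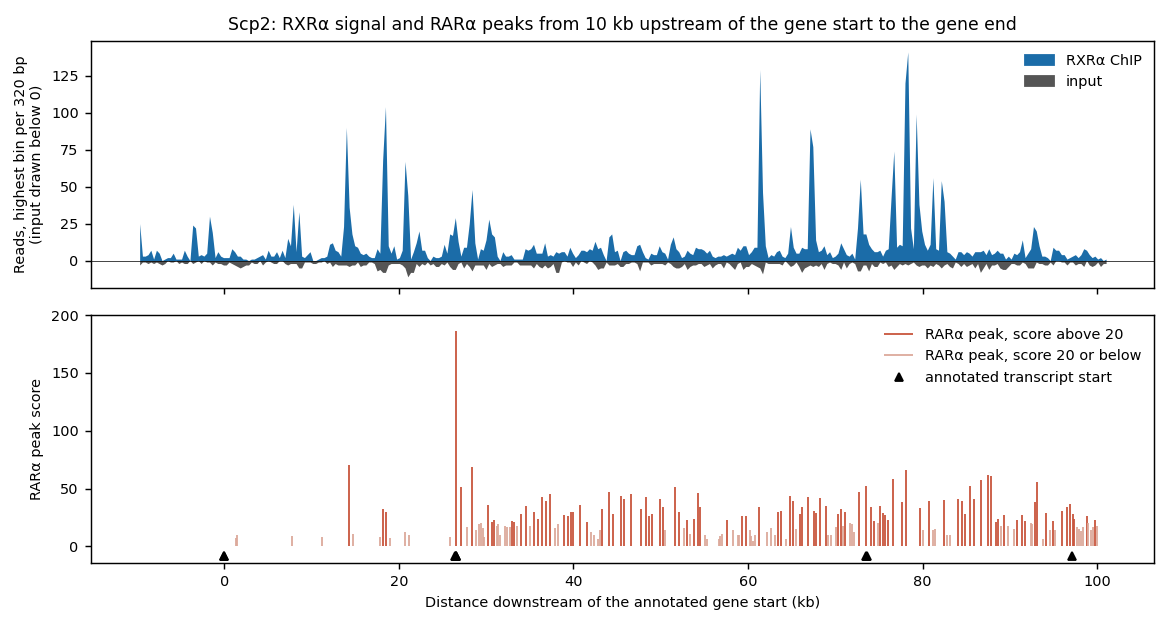
Scp2 from 10 kb upstream of the annotated start to the gene end, with the highest RXRα (blue) and input (grey, drawn below 0) reads in each 320 bp in the upper panel and the score of each RARα peak in the lower panel, where triangles mark annotated transcript starts. RARα peaks begin in number at the inner starts near 26 kb, where the score reaches 186, while RXRα stands in separate regions that reach 141 reads.

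Decr2 encodes the peroxisomal 2,4-dienoyl-CoA reductase, an auxiliary enzyme for unsaturated fatty acids. Its highest ratio, 114, lay in a region 1510 bp upstream of the start at 26227274 on chromosome 17, with no filtered RARα peak. The summit of this region had 76 reads (59.9 to 95.1) over 1 input read and a ratio of 76.0. An intronic region 3162 bp downstream had 143 reads (121 to 168), a ratio of 69.0 and a RARα peak with a score of 24. At 90 bp downstream of the start, in an untranslated exon, a region with 33 reads and a ratio of 33.0 lay under the gene's highest RARα peak, with a score of 65.

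Pex11a encodes a membrane protein that promotes elongation and division of peroxisomes, and it does not itself oxidise fatty acids. It had a single RXRα region. This lay 8321 bp downstream of the start at 86888017 on chromosome 7, beyond the gene's end, with a RARα peak with a score of 26. It had 117 reads (96.8 to 140) over 4 input reads at the summit. Its ratio was 29.2 there and 71.0 at the best bin. The nearest gene start was that of Plin1, a lipid droplet coat gene, and the distance rule does not tell to which gene the region belongs. At the start of Pex11a the RARα peak had a score of 44 and RXRα was at 2.21 times input.

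**Figure D4:**
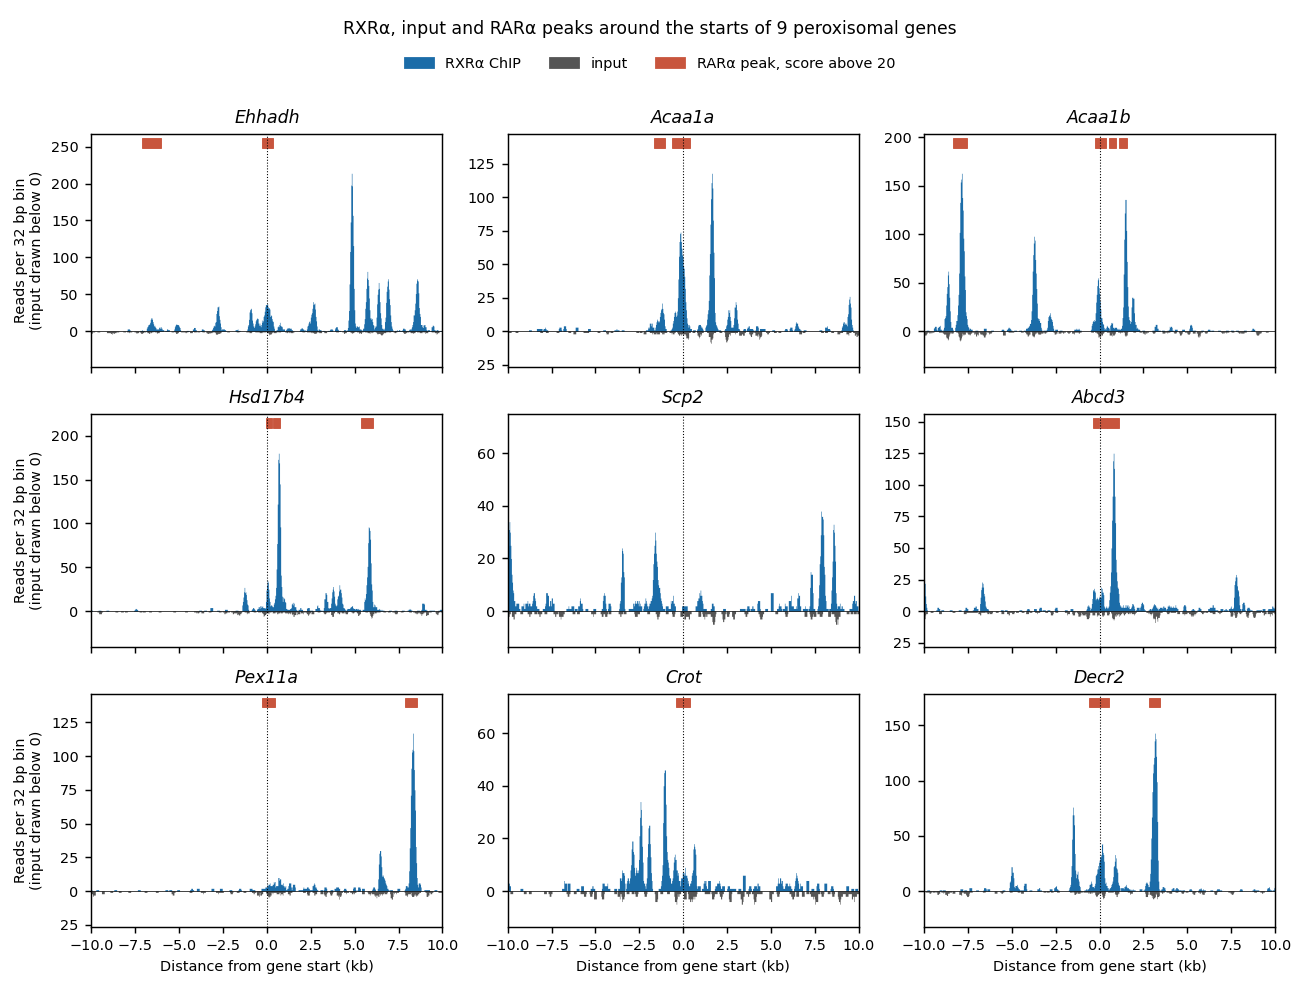
RXRα (blue, upward) and input (grey, drawn below 0) reads per 32 bp bin within 10 kb of the start of each of the 9 genes, with RARα peaks of a score above 20 as red bars at the top; each panel has its own vertical scale. The tallest RXRα summit of a gene lies from 673 bp (Hsd17b4, 180 reads) to 8321 bp (Pex11a, 117 reads) from the dotted line of the gene start. That of Ehhadh, with 214 reads, is at 4829 bp.

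Summed over 10 kb on either side of the start, which uses no threshold, RXRα exceeded input at 9 of 9 members, beside 55.3% of all genes and 88.1% of the genes with both. The median was 4.75 times input over the members, 1.09 over all genes and 1.89 over the genes with both. After the 8.49 times of Ehhadh, the values were 5.54 at Acaa1b, 5.27 at Decr2, 5.0 at Acaa1a, 4.75 at Hsd17b4, 3.95 at Scp2, 2.94 at Pex11a, 2.77 at Crot and 2.76 at Abcd3. Each sum had 358 to 1196 RXRα reads over 102 to 181 input reads. The intervals of RXRα reads did not overlap between Ehhadh (1129 to 1266) and Acaa1b (942 to 1067). Abcd3 (452 to 540) had more RXRα reads than Scp2 (366 to 446), also without overlap, but a lower value over input because its input was 179 reads against 102. Intervals of RXRα reads overlapped among Scp2, Pex11a (336 to 413) and Crot (321 to 397), and between Abcd3 and Acaa1a (532 to 627). They also overlapped between Decr2 (614 to 716) and both Acaa1a and Hsd17b4 (651 to 756). Overlap of such intervals does not by itself mean that genes cannot be ordered by their reads, and these pairs were not tested.

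DR1-like sequences were found at 7 of the 56 RXRα summits of the members, beside 13.0% of all 42117 regions. Windows of the same 201 bp placed 500 bp from the summits held one at 6 of 56, beside 3.21%. Among regions with a ratio of 50 or more, 1 of 21 at the members held one, beside 16.5%, and that one was in Scp2, 79347 bp downstream. Of the 9 highest regions, that of Abcd3 was the only one with at most 2 mismatches, and the others had 3 to 5. The match with 1 mismatch, at Crot, belonged to a region with a ratio of 21.0. The letters printed above therefore mostly lie at regions of lower ratio, and no match within 2 mismatches says only that these letters were not in the window. DR5-like sequences, counted in the same way at RARα summits, were found at 3 of 122 peaks of the members, beside 2.30% of all filtered peaks. The starts of 6 of 9 members were rich in CpG, with more than 50% GC and a ratio of observed to expected CpG above 0.6, beside 44.2% of all genes. The exceptions were Ehhadh, Decr2 and Scp2 at 0.43, 0.46 and 0.083.

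Other genes of the organelle were read from lists by name. Of 30 other peroxisomal genes, all had a region, 29 a RARα peak and 24 one that co-localized, and their median highest ratio was 85.5. Ech1, an auxiliary isomerase, had the highest ratio of the list, 196, at 108 bp upstream. Acot12 followed with 179, and Acot3 and Acot4, thioesterase genes that share one region within their windows, with 173. Cat, which encodes catalase, had a ratio of 110 at 8859 bp upstream and a RARα score of 183 near its start. Slc27a2, an acyl-CoA synthetase gene, had a ratio of 101 at 5871 bp upstream and 39 RARα peaks. The highest region was within 500 bp of the start at 9 of these 30 genes, against 0 of 9 members.

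Of 15 peroxins, the genes for peroxisome assembly, 13 had a region, 15 a RARα peak and 11 a co-localized one. Their median highest ratio was 74.7, and Pex2 had the highest, 159, at 129 bp upstream of its start. The 14 mitochondrial fatty acid oxidation genes all had a co-localized peak, with a median ratio of 90.4. Their highest region lay closer to the start, at a median of 395 bp and within 500 bp at 9 of 14. Crat, with its highest region 405 bp downstream of the start, was on this list and on that of the other peroxisomal genes. Acaa2 and Decr1, which encode the mitochondrial counterparts of the thiolases and of the reductase, had theirs 83 bp upstream and 62 bp downstream of the start with ratios of 106 and 86.3, and Hadha had 84.6 at 3766 bp downstream. Within 10 kb of the start alone, the median highest ratio was 76.3 at the members and 85.5 at the other peroxisomal genes. It was 49.8 at the peroxins and 85.5 at the mitochondrial genes. RXRα within 500 bp of the start was 5.79 times input at the median member and 5.95 times at the other peroxisomal genes. It was 3.85 times at the peroxins and 12.7 times at the mitochondrial genes. As a check of the tissue, 5 of 5 hepatocyte genes (Alb, Ttr, Apoa1, Apob and Cyp7a1) had a co-localized peak. The genes Neurod1, Myod1, Ins2 and Krt5 of other tissues had 0 regions and 0 filtered peaks, with highest ratios up to 8.30.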

How the data were processed

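The RXRα and input files deposited by the authors hold a signal, the number of extended reads over each 32 bp bin that is not empty. Both totals are close to the same number, and the paper reports more uniquely mapped RXRα reads than the RXRα total. The totals therefore give the deposited depth, which for RXRα is below the sequenced depth. The RARα file deposited by the authors is a peak list with a score and a false discovery rate in percent for each peak. How the score is scaled is not given in the sources used here, and the rate was not used as a filter. The submitters' processing notes name CASAVA 1.4, Bowtie, MACS and mm9. The methods of the study name another build for alignment, and NCBI37/mm9 was used because the file headers name it. A read spans 5 bins, so reads were taken as signal over 5. The 20-fold, score, 10 kb and 25% settings follow the study, and the input rule, the joining and the use of the gene body were chosen here.

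All 9 members were named, with their highest region and peak. From the other lists, 4 peroxisomal and 3 mitochondrial genes were chosen in advance, and the 3 peroxisomal genes and 1 peroxin with the highest ratios were added. Of these and of the tissue marker genes, 1 each is not reported here. Members and lists were chosen with earlier results of these data known. Region calling, assignment and co-localization were tested on simulated data, and the sequence search was not. Python 3.11.15, numpy 2.4.6, pandas 2.3.3, pysam 0.24.0 and biopython 1.88 were used.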

Additional observations from a re-analysis of the deposited data

How the results depend on the processing

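No paired analysis was possible because each antibody had 1 library, and no replicate could be left out. Of 83 alternatives to the settings, 63 left a result within its range. This range was wide for counts. A fall from 9 to 6 members with a region was within it, as was 39 in place of 56 regions, while 31 was not. For the median ratio it was 76.9 to 116, from the counting error of 1 gene's RXRα reads. Over the alternatives 6 to 9 members had a region, 7 to 9 a RARα peak and 4 to 9 a co-localized peak, with 4 when the score had to exceed 50. The 56 RXRα regions became 123 at 10 times input, 214 at 5 times input, 8 within 1 kb of the start and 31 when each went to the nearest gene start within 10 kb and the gene body was dropped, where dropping the body alone gave 39. The 122 RARα peaks became 292 without a score threshold, 22 above a score of 50, 54 after abutting peaks were merged, 21 within 10 kb of the start without the body, 14 within 1 kb, and 18 by the nearest gene start within 10 kb, also without the body. The median highest ratio of 95.0 became 234 against the genome mean input alone, 76.3 against input averaged over 1 kb, 76.3 within 10 kb and 37.0 within 1 kb of the start. The members with a DR1-like sequence went from 5 to 1 with at most 1 mismatch and to 9 with at most 3. Chosen after the data were seen were the windows of 10 kb around every transcript start without the gene body and all alternatives to the place of the highest region and peak. Of these, the count of members with the highest region within 500 bp of the start went from 0 to 1 with every transcript start, and that of co-localized highest RARα peaks from 3 to 8 at 10 times input and to 7 against the genome mean input.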
